A study of Rattus norvegicus with 54 samples.

Results

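Expression in foetal rat liver was compared between 22 and 20 days of gestation, the last days before birth. The members are the liver arrays labelled F22 (4) and F20 (4), 8 of 54 arrays in the series, and the comparison was made over 15310 probe sets with a single gene symbol, which stand for 14506 genes. All animals were Wistar rats, with no transgene or treatment, and F22 and F20 foetuses were taken by Caesarean section from killed mothers. The 4 arrays of a group are biological replicates of snap-frozen whole liver, and the sources do not say whether foetuses of a group shared a litter, so that the tests measure the spread between these samples. Total RNA was read on GeneChip Rat Gene 1.0 ST arrays, whose probes lie along the whole transcript, and values are log2 signals after robust multi-array averaging (RMA). The study followed liver and hind limb muscle through F16, F20, F22 and postnatal days P1 and P4. The series also holds adult liver arrays (P90) and muscle arrays of a further foetal day, which were outside the main fits. Differences are given as F22 minus F20 on the log2 scale, so that a difference of 1 is a 2-fold change.

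The liver of the foetus is both a blood-forming organ and a growing gland. Red cell precursors fill much of it in mid gestation and leave for the bone marrow around birth, while hepatocytes take over the making of plasma proteins, bile acids and glucose. At birth the supply of glucose through the placenta ends, and the newborn depends on milk fat, on its own glucose output and on a first line of innate defence. Glucocorticoids of the foetal adrenal gland rise before term and are known to induce several of the enzymes concerned, such as tyrosine aminotransferase.

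The groups were well separated. Arrays correlated on average at 0.994 to 0.996 within their group and at 0.976 to 0.982 across the groups. Array medians lay between 7.76 and 7.84, and the first principal component of the 8 arrays carried 69.5% of the variance and split F22 arrays (19.9 to 26.8) from F20 arrays (-26.7 to -22.4). Hepatocyte markers had a mean log2 signal of 12.13 to 12.34 in F22 arrays and 11.64 to 11.75 in F20 arrays. Some arrays stood apart in markers of neighbouring tissues. The mean of 7 skeletal muscle markers was 9.20 and 7.89 in F22 replicates 1 and 4 and 8.14 in F20 replicate 1, against 6.59 to 6.76 in the other 5 arrays. F20 replicate 3 had a mean of 7.68 over 11 pancreas markers, against 6.35 to 6.63 in the other 7 arrays, and was also highest in gut epithelium (7.61) and cholangiocyte markers (7.79). For this reason counts are also given without these 4 arrays, a setting chosen after the values were seen. This leaves only F22 replicates 2 and 3 and F20 replicates 2 and 4, so that the test has less power. Whether a lost call reflects the tissue markers or the fewer arrays was not tested. Outside the pair of groups, P1 replicate 1 had a mean over cholesterol synthesis genes of 10.38, against 9.06 to 9.34 in the other P1 arrays, and since the fit takes its spread from all 5 liver groups, this array widens the error of those genes.

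Plasma protein, interferon and innate immune genes were higher at F22, and genes of cell division, red cell formation and cholesterol synthesis were lower. In the limma fit over the 20 liver arrays, 2233 probe sets were higher and 3192 lower at an adjusted p of at most 0.05, together 5425 or 35.4% of those tested. Of these, 363 differed by over 2-fold. By gene, 2182 of 14506 were higher (15%) and 3023 were lower (20.8%), and these shares are the background for every list below. All F22 arrays lay above all F20 arrays for 16.7% of genes and below them for 22.9%. The median difference of all genes was -0.02, and the share of higher calls was 41.2%. Without the 4 arrays with markers of other tissues, 1295 probe sets were higher and 1813 lower.

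**Figure D1:**
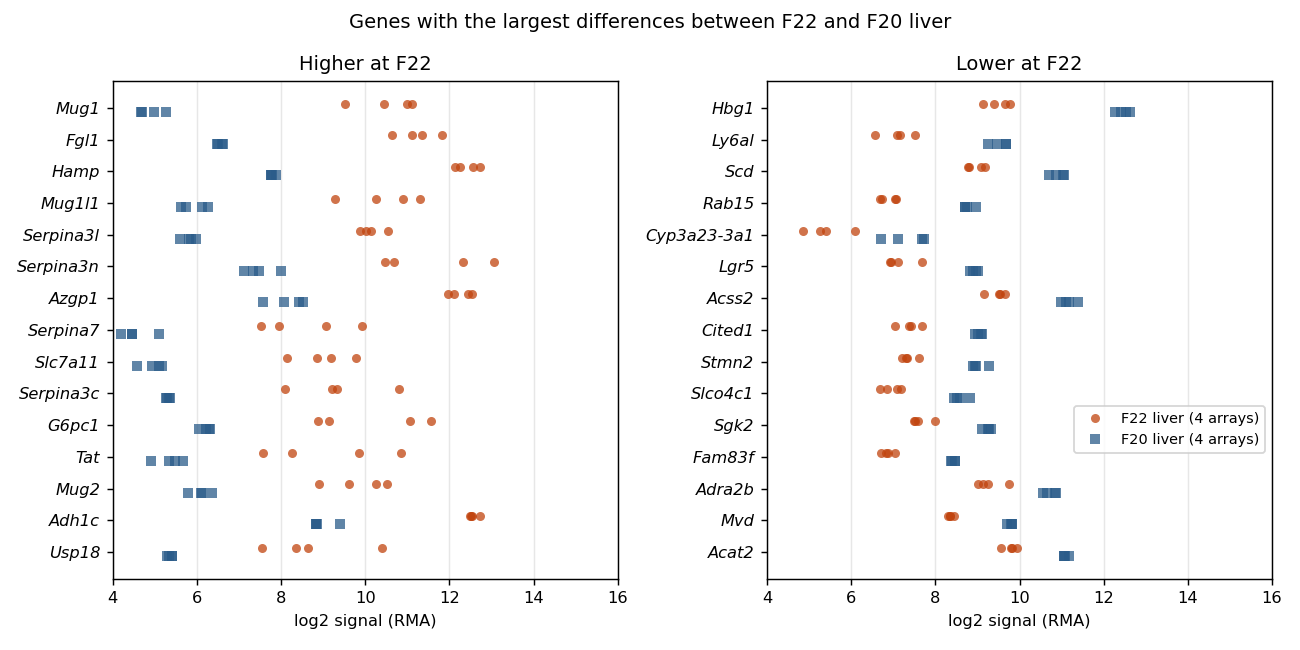
Log2 signal (x axis) of the 15 genes with the highest and the 15 with the lowest differences among called genes whose groups do not overlap, with a circle for each of the 4 F22 arrays above a square for each of the 4 F20 arrays. *Mug1* lay between 9.51 and 11.12 in F22 arrays and between 4.67 and 5.26 in F20 arrays, and *Hbg1* between 9.12 and 9.77 at F22 and between 12.26 and 12.62 at F20.

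The steepest rises were in secreted proteins of the hepatocyte. *Mug1*, a murinoglobulin that traps proteases in rodent plasma, had log2 signals of 11.12, 10.99, 10.44 and 9.51 in F22 livers, against 4.70, 5.26, 4.98 and 4.67 in F20 livers (difference 5.61, SE 0.23, limma adjusted p = 2e-12). The groups were far apart, with F22 replicate 4 the lowest of its group. The neighbouring family members *Mug1l1* (4.50) and *Mug2* (3.73) differed likewise, but their sequences are much alike, and signal of the 3 genes cannot be told apart with certainty. *Fgl1*, a hepatocyte protein released into blood, had 11.34, 10.64, 11.12 and 11.82 in F22 livers and 6.51, 6.48, 6.63 and 6.60 in F20 livers (4.67, SE 0.18). *Hamp*, the hormone hepcidin that blocks iron export from cells, had 12.57, 12.26, 12.13 and 12.72 in F22 livers and 7.77, 7.79, 7.89 and 7.76 in F20 livers (4.62, SE 0.13, adjusted p = 4.7e-15). The groups did not overlap for either gene, and F22 arrays spread more for *Fgl1* than for *Hamp*. The serpins *Serpina3l* (4.33), *Serpina3n* (4.16) and *Serpina3c* (4.05) also rose and belong to 1 family of close copies. *Azgp1*, a zinc-binding plasma glycoprotein, rose by 4.12 (SE 0.17), and *Serpina7*, the thyroxine-binding globulin, by 4.07 (SE 0.36).

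Outside the plasma proteins, *Slc7a11*, the cystine and glutamate exchanger of the cell membrane, had 8.85, 9.18, 8.15 and 9.78 in F22 livers, against 4.58, 4.94, 5.16 and 5.09 in F20 livers (4.05, SE 0.37, adjusted p = 1.1e-07). In the other liver groups its mean was 5.45 at F16, 5.65 at P1, 4.84 at P4 and 4.87 in adult liver (P90). *G6pc1*, the glucose-6-phosphatase that releases free glucose, had 11.56, 11.07, 8.89 and 9.13 in F22 livers and 6.30, 6.29, 6.06 and 6.22 in F20 livers (3.94, SE 0.41). *Tat*, the tyrosine aminotransferase, had 8.27, 10.85, 7.56 and 9.85 at F22 and 5.34, 5.47, 4.91 and 5.66 at F20 (3.79, SE 0.53). Both enzymes varied widely among F22 livers and little among F20 livers, and F22 replicate 3 was the lowest for both. *Adh1c*, an alcohol and retinol dehydrogenase, rose by 3.58 (SE 0.13).

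The largest falls were smaller. *Hbg1*, a globin gene, had 9.66, 9.12, 9.77 and 9.40 in F22 livers, against 12.54, 12.26, 12.62 and 12.40 in F20 livers (-2.97, SE 0.33, adjusted p = 1e-06). *Ly6al* differed by -2.43 (SE 0.21), and *Scd*, the desaturase that makes oleic acid, had 8.78, 8.79, 9.08 and 9.18 at F22 and 11.05, 10.86, 10.69 and 11.02 at F20 (-1.95, SE 0.46). In each of these genes every F22 array lay below every F20 array. *Lgr5*, the R-spondin receptor of the Wnt pathway, differed by -1.76 (SE 0.16), *Cited1*, a transcriptional co-regulator, by -1.66 (SE 0.11), and *Adra2b*, an adrenergic receptor, by -1.44 (SE 0.16). The list also held *Rab15* (-1.91), *Slco4c1* (-1.64), *Stmn2* (-1.65), *Sgk2* (-1.59) and *Fam83f* (-1.56), and the lipid genes *Acss2* (-1.70), *Mvd* (-1.43) and *Acat2* (-1.32). *Cyp3a23-3a1*, a drug-metabolising cytochrome of a family of close copies, was 6.10, 5.40, 5.26 and 4.86 at F22 and 7.11, 7.69, 7.72 and 6.71 at F20 (-1.90, SE 0.33). After this fall its mean stood at 12.50 at P1, a difference P1 minus F22 of 7.1 that shares the F22 arrays.

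**Figure D2:**
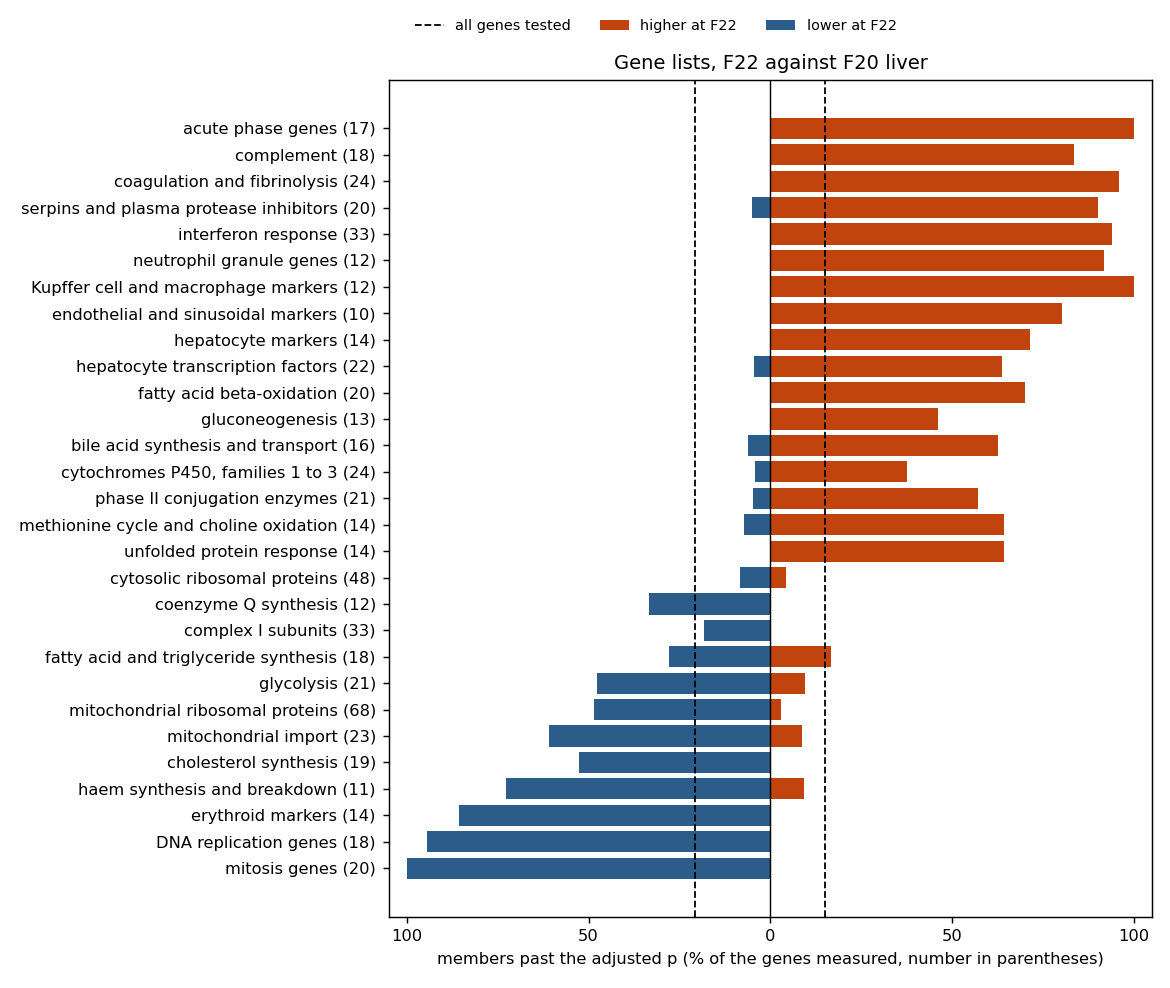
Share of the measured members of 29 gene lists (rows, number of genes in parentheses) that were higher (right) or lower (left) at F22 at an adjusted p of at most 0.05. Dashed lines mark the shares over all genes tested, 15% higher and 20.8% lower, and the bars of cytosolic ribosomal proteins and complex I subunits do not reach them.

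Genes of the acute phase response, plasma proteins that hepatocytes release in infection, were higher at F22 without exception among those measured, 17 of 17 with a median difference of 1.34. *Cp*, the copper protein ceruloplasmin, had 12.49, 12.43, 12.30 and 12.72 in F22 livers and 10.01, 9.92, 9.96 and 10.34 in F20 livers (2.43, SE 0.10, adjusted p = 3.2e-12). *Lbp*, which carries bacterial lipopolysaccharide, had 11.14, 11.06, 10.76 and 12.24 at F22 and 8.85, 8.72, 8.54 and 8.86 at F20 (2.56, SE 0.23). The arrays of a group were close for *Cp*, while F22 replicate 4 stood highest for *Lbp*. The pentraxins *Apcs* (2.76) and *Crp* (1.39) and the haemoglobin carrier *Hp* (1.73) rose as well, and the 3 fibrinogen chains *Fga* (0.36), *Fgb* (0.34) and *Fgg* (0.31, adjusted p = 0.053 without the 4 arrays with other tissue markers) by little. Signals of the 3 chains, between 12.63 and 13.49, lay high on the scale. The mean level of the list was 11.24 to 11.73 in F22 arrays and 9.68 to 9.89 in F20 arrays, and without the 4 arrays with markers of other tissues 15 of 17 were higher.

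In the complement system, a cascade of plasma proteases that opens bacterial membranes, 15 of 18 genes were higher and 0 lower (median 0.83). *C6*, a part of the membrane pore, had 10.68, 10.46, 10.81 and 11.09 in F22 livers, against 9.44, 8.28, 8.12 and 9.49 in F20 livers (1.93, SE 0.31). F20 replicates 2 and 3 were more than 1 unit below the other F20 livers, and all were below the F22 livers. The pore protein *C9* rose by 2.23 (SE 0.27) and the starter proteases *C1s* and *C1r* by 1.69 (SE 0.15) and 1.55 (SE 0.12), while *Mbl2*, *C7* and *Cfd* did not pass the test (0.04, 0.22 and 0.28), *Cfd* with an adjusted p of 0.0039 when the 8 arrays were fitted alone. Of 24 coagulation genes 23 were higher (median 0.49), led by *Klkb1*, the plasma prekallikrein (2.38, SE 0.11), *Pros1*, the anticoagulant protein S (1.39, SE 0.07), and *F12* (1.02, SE 0.07). Of 20 serpins and other protease inhibitors 18 were higher and 1 lower, and this list shares *Serpina3n* with the acute phase list. The gene that was lower was *Serpina6*, the corticosteroid-binding globulin that holds cortisol and corticosterone in blood, with 12.36, 12.21, 12.61 and 12.56 in F22 livers and 13.19, 13.21, 13.23 and 13.14 in F20 livers (-0.76, SE 0.23, adjusted p = 0.013). Every F22 array lay below every F20 array for this gene, but without the 4 arrays its adjusted p was 0.16 (-0.77).

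Promoter windows of *Cp* and *C6* are shown since both carry a motif that C/EBP factors, regulators of acute phase genes, can bind. The windows are RefSeq sequences of build GRCr8 from 250 bases before to 50 after the gene start, *Cp* at chr2:104368420-104368719 and *C6* at chr2:55573383-55573682, both on the plus strand. Capitals mark TTGCNNAA on either strand.
Cp: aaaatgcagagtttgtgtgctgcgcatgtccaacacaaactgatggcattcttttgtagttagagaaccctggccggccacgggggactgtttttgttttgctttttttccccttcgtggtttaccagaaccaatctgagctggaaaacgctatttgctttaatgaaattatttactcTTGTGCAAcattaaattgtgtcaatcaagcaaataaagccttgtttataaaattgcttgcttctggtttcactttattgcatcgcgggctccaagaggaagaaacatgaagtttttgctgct
C6: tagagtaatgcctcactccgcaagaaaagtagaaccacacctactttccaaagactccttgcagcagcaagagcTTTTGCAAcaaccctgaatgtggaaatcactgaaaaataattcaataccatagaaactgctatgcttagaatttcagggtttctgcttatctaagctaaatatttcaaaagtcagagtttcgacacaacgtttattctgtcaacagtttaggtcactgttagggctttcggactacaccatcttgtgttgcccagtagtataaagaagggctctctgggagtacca
The motif stood in 7 of 14 acute phase windows and 6 of 12 complement windows (50% of each), against 10.6% of all 33469 windows. A match describes the letters of a window and is not a measured site.

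Interferon response genes, which cells switch on after a signal of type I or type II interferon to block viruses, rose together. Of 33 measured, 31 were higher and 0 lower at F22, with a median difference of 1.36. *Usp18*, which strips the ISG15 tag from proteins and damps the response, had 8.64, 7.55, 10.39 and 8.35 in F22 livers, against 5.34, 5.29, 5.42 and 5.41 in F20 livers (3.37, SE 0.38, adjusted p = 1.3e-06). *Oas1a*, a sensor of double-stranded RNA, had 8.72, 7.86, 10.60 and 8.62 at F22 and 6.19, 6.16, 6.16 and 6.28 at F20 (2.75, SE 0.35), and its close copy *Oas1b* differed by 2.68. F20 livers were nearly flat in these genes, and F22 replicate 3 was the highest and F22 replicate 2 the lowest. *Irf7*, the transcription factor that amplifies interferon production, had 8.33, 7.57, 9.66 and 7.89 at F22 and 6.72, 6.81, 6.67 and 6.62 at F20 (1.66, SE 0.28). *Rtp4* (2.74), *Ifi27* (2.31), *Mx2* (2.27) and *Ifi44l* (2.20) rose steeply, *Isg15*, the tag itself, by 1.37 and *Ifit3* by 1.15, while *Stat2*, a transcription factor of the pathway, rose by only 0.32 and lost its call without the 4 arrays (0.28, adjusted p = 0.12).

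The list had a mean level of 8.27, 7.93, 9.19 and 8.10 in the F22 arrays and 6.94, 7.05, 6.77 and 6.88 in the F20 arrays. Every F22 array was above every F20 array, and F22 replicate 3 was about 1 unit above the rest. Without F22 replicate 3, 30 genes were higher and 1 lower (median 1.22), and without the 4 arrays that held markers of other tissues, among which it is not, 28 were higher (1.60). The 2 genes that did not pass were *Ifit1* and *Cmpk2*. *Ifit1*, an RNA-binding effector, was 5.15, 5.11, 5.15 and 5.38 in F22 livers but 9.35, 9.47, 4.97 and 5.01 in F20 livers, so that F20 replicates 1 and 2 stood about 4 units above the other 6 arrays (-2.0, SE 1.02, adjusted p = 0.15). The gene also varied widely at F16 (mean 6.63, SD 1.98) and P1 (mean 6.51, SD 1.60). Leaving out F20 replicate 3 brought this gene to -2.74 with an adjusted p of 0.049. *Cmpk2*, a mitochondrial nucleotide kinase, was -0.08 (adjusted p = 0.70) and -0.28 without F22 replicate 3 (adjusted p = 0.016). Of antigen presentation genes, many of which interferons induce, 7 of 17 were higher and 0 lower (2 higher without the 4 arrays), with *Cd74*, the invariant chain of class II molecules, at 1.05 (adjusted p = 0.053 without the 4 arrays).

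**Figure D3:**
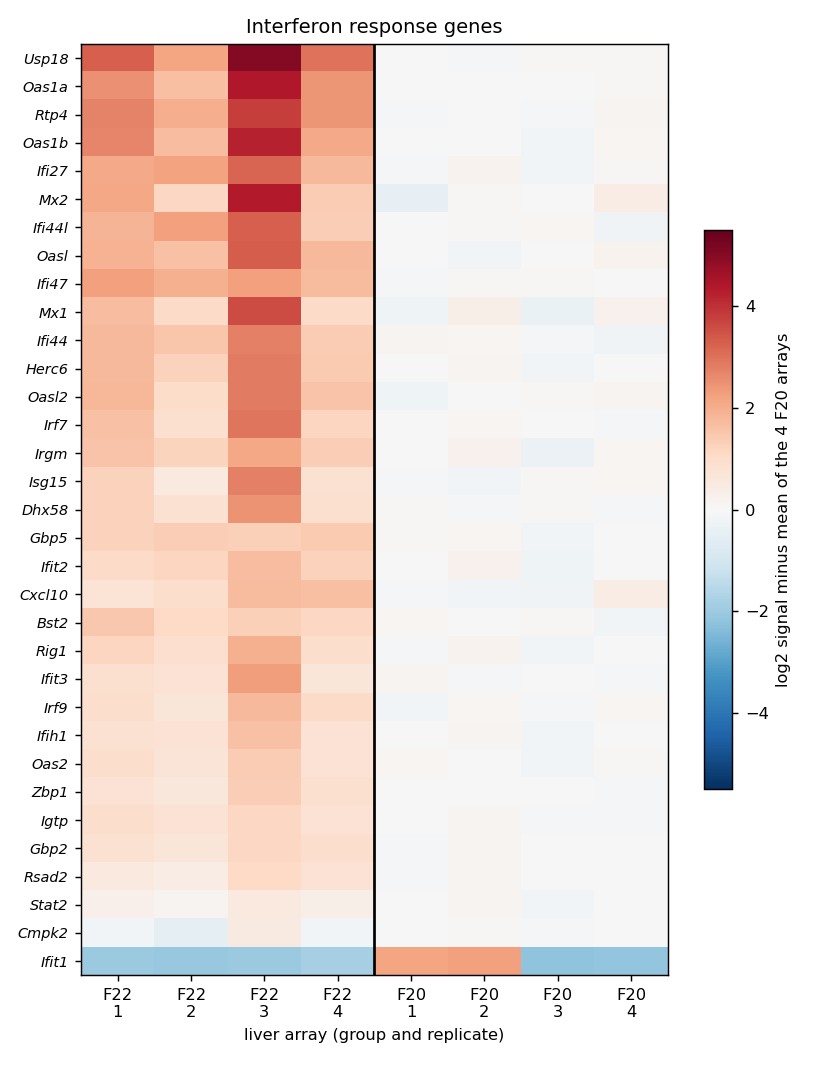
Log2 signal of the 33 interferon response genes (rows, from the highest to the lowest difference) minus the mean of the 4 F20 arrays, in each F22 array (left) and each F20 array (right). F22 replicate 3 has the darkest column, and the bottom row shows *Ifit1*, high in F20 replicates 1 and 2 only.

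Promoter windows of called members are printed because their letters hold the core of the interferon-stimulated response element, the motif read by the STAT and IRF factors. RefSeq places *Oas1a* at chr12:41330216-41330515 (plus strand), *Ifit3* at chr1:241527076-241527375 (plus strand) and *Irf7* at chr1:205799974-205800273 (minus strand) of GRCr8, each from 250 bases before to 50 after the start. Capitals mark GAAANNGAA on either strand, and in *Oas1a* 2 matches overlap.
Oas1a: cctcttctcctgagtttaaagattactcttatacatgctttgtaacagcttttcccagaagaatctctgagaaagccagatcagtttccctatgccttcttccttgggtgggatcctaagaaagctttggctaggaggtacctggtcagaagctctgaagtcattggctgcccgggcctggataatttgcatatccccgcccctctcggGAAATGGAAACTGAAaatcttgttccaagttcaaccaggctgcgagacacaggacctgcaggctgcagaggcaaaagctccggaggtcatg
Ifit3: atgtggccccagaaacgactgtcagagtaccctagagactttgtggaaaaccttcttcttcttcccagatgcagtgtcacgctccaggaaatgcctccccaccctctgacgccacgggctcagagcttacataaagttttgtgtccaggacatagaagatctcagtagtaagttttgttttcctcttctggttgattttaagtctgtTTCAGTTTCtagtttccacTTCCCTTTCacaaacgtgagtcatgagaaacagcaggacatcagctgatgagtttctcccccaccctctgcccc
Irf7: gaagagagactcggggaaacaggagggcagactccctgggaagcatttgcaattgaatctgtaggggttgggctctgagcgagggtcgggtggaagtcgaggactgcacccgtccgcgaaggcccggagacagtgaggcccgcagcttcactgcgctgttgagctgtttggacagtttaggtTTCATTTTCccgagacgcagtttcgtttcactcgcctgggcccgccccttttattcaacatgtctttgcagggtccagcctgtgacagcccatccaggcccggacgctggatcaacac
Of the 33 genes 23 had a window, and 17 of these (73.9%) held the motif, against 9.71% of all windows and 8.17% of the windows of genes measured here.

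Genes of white cells and of resident macrophages were higher at F22. Of 12 neutrophil granule genes 11 rose, with a median of 1.68 and a mean level of 9.77 to 10.38 in F22 arrays against 8.03 to 8.49 in F20 arrays. *Mmp8*, the neutrophil collagenase, had 9.74, 9.96, 9.69 and 10.55 in F22 livers and 7.0, 7.39, 6.86 and 7.22 in F20 livers (2.87, SE 0.16, adjusted p = 1.6e-10). *S100a8*, a calcium-binding protein of the neutrophil cytoplasm, had 9.35, 9.29, 9.54 and 10.47 at F22 and 7.13, 7.88, 7.06 and 7.82 at F20 (2.19, SE 0.24). F22 replicate 4 was the highest for both genes, and no array of F20 reached the F22 range. The primary granule enzymes *Elane* (1.30) and *Mpo* (1.06) rose by less, and *Ltf*, of the secondary granules, was 0.20 (adjusted p = 0.057, and 0.033 and 0.029 without F20 replicate 3 or 4). In such whole-tissue RNA, more cells of a type and more RNA per cell cannot be told apart.

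All 12 Kupffer cell and macrophage markers were higher (median 0.75, mean level 9.37 to 9.58 at F22 against 8.50 to 8.71 at F20). *Vsig4*, the complement receptor of Kupffer cells, had 8.80, 8.31, 8.23 and 8.61 in F22 livers and 6.70, 6.53, 6.52 and 6.69 in F20 livers (1.88, SE 0.27), and *Clec4f*, a lectin of the same cells, differed by 1.29 (SE 0.14). The 2 groups were separate for both. Of 10 endothelial markers 8 were higher (median 0.45), led by *Fcgr2b*, the Fc receptor of sinusoidal cells (1.71, SE 0.18), and 5 of 6 B cell precursor markers were higher, among them the transcription factor *Ebf1* (0.85, SE 0.13). Of 9 blood progenitor markers 3 were lower and 0 higher, but the median was 0.11 and the list had no common direction. Those lower included *Tal1* (-0.83, SE 0.07) and the stem cell factor receptor *Kit* (-0.48, SE 0.11).

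Red cell genes fell. Of 14 erythroid markers 12 were lower and 0 higher (median -0.51), and the mean level was 11.32 to 11.61 in F22 arrays against 11.85 to 11.96 in F20 arrays. *Gata1*, the master factor of red cells, had 9.99, 10.02, 10.40 and 10.18 in F22 livers and 11.01, 11.07, 10.67 and 10.95 in F20 livers (-0.78, SE 0.11, adjusted p = 1.3e-05). *Epor*, the erythropoietin receptor, differed by -0.72 (SE 0.09). F22 replicate 3 was nearest to F20 for both genes. *Slc4a1*, the anion exchanger of the red cell membrane, fell by only 0.26 and lost its call without the 4 arrays (adjusted p = 0.055).

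Genes of haem synthesis and breakdown took the same direction, with 8 of 11 lower and 1 higher (median -0.60). *Uros*, the synthase that closes the porphyrin ring, had 10.26, 10.36, 10.65 and 10.39 at F22 and 11.46, 11.40, 11.38 and 11.42 at F20 (-1.0, SE 0.13). The gene that rose was *Alas1*, the first enzyme of haem synthesis in tissues other than red cells, with 10.99, 11.15, 11.02 and 10.87 in F22 livers and 10.24, 10.26, 10.18 and 10.30 in F20 livers (0.76, SE 0.13). Its red cell counterpart *Alas2* was -0.25 (adjusted p = 0.064, and 0.033 without F22 replicate 3, 0.023 with the 8 arrays alone). Of 5 globin genes 2 were lower, *Hbg1* and *Hbe2* (-0.54, adjusted p = 0.064 without the 4 arrays), both of a family of close copies, while *Hbb*, the adult globin, was -0.12 (adjusted p = 0.099, and 0.047 without F22 replicate 3, 0.035 without P1 replicate 1). Signals of *Hbb* between 13.46 and 13.70 lay near the top of the scale.

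Among iron genes, *Tfrc*, the receptor that takes up transferrin, and the iron importer *Slc11a2* were lower at F22 (-0.58, SE 0.11, and -0.78, SE 0.09). *Slc40a1*, the exporter ferroportin on which hepcidin acts, had 12.04, 12.18, 12.06 and 12.05 in F22 livers and 11.62, 11.65, 11.50 and 11.66 in F20 livers (0.48, SE 0.07). In all, 8 of 14 iron genes were higher and 2 lower, and the ceruloplasmin and hepcidin values are those given above.

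Cell division genes fell. All 20 mitosis genes were lower (median -0.51, and 15 of 20 without the 4 arrays with other tissue markers) and 17 of 18 DNA replication genes (median -0.63), with 0 higher. *Bub1b*, a kinase of the spindle checkpoint, had 8.96, 8.97, 9.20 and 8.81 in F22 livers and 9.83, 9.95, 9.79 and 9.75 in F20 livers (-0.84, SE 0.07, adjusted p = 5.9e-08). *Cdk1*, the kinase that starts mitosis, had 9.62, 9.72, 9.81 and 9.70 at F22 and 10.20, 10.27, 10.29 and 10.30 at F20 (-0.55, SE 0.06), and *Mcm5*, of the replication helicase, differed by -0.76 (SE 0.09). Every F22 array was below every F20 array for these genes, with F22 replicate 3 the highest of its group. *Cdkn1a*, the inhibitor p21, was 8.90, 8.77, 8.98 and 8.79 in F22 livers and 8.15, 8.01, 8.09 and 8.00 in F20 livers, a difference of 0.80 that did not pass (SE 0.33, adjusted p = 0.065) although the arrays did not overlap. Its adjusted p was 2.1e-05 with the 8 arrays alone. The chromatin genes *Uhrf1*, which guides maintenance methylation of DNA (-0.70, SE 0.07), and *Ezh2*, the Polycomb methyltransferase (-0.49, SE 0.06), fell as well.

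Windows of *Cdk1* and of its partner *Ccnb2* (-0.64, SE 0.06) are given for the pair of elements known from late cell cycle genes. *Cdk1* lies at chr20:19265043-19265342 (plus strand) and *Ccnb2* at chr8:79981609-79981908 (minus strand) of GRCr8 in RefSeq. Capitals mark TTTGAA, the CHR element, and CCAAT, the CCAAT box, on either strand, and no matches overlap.
Cdk1: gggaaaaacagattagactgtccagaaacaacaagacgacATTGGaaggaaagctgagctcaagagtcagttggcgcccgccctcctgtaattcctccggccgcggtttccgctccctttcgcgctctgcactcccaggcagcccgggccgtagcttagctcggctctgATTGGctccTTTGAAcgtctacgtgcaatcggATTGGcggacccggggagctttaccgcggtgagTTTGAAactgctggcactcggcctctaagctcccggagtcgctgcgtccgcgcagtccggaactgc
Ccnb2: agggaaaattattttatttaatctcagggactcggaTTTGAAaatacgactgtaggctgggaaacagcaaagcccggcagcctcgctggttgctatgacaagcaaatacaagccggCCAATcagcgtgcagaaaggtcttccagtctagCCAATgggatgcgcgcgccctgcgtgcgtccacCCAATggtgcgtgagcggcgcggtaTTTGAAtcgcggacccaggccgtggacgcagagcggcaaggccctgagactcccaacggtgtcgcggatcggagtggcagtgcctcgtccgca
TTTGAA stood in 12 of 17 mitosis windows (70.6%, against 18.3% of all windows) and CCAAT in 13 of 17 (76.5%, against 37.5%).

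The label of the tissue was borne out by hepatocyte markers, whose median level was near the top of the scale (13.14 at F22 and 12.85 at F20). The list also holds *Tat*, at 4.91 to 5.66 in F20 livers. *Alb*, the albumin gene, was 13.82, 13.84, 13.86 and 13.82 in F22 livers and 13.80, 13.75, 13.80 and 13.75 in F20 livers (0.06, SE 0.04, adjusted p = 0.30), and 10 of 14 markers were higher (median 0.25, and 6 of 14 without the 4 arrays with other tissue markers). *Afp*, the foetal counterpart of albumin, also lay near the top, at 13.54 to 13.69 in F22 livers and 13.56 to 13.60 in F20 livers. Its difference was 0.02 (SE 0.05, adjusted p = 0.80). Among transcription factors of the hepatocyte 14 of 22 were higher and 1 lower (median 0.47). *Cebpa*, which restrains growth and drives metabolic genes, had 9.81, 9.70, 10.02 and 9.64 in F22 livers and 8.51, 8.54, 8.35 and 8.53 in F20 livers (1.31, SE 0.08, adjusted p = 6.3e-10). *Nr1h4*, the bile acid receptor FXR, rose by 1.59 (SE 0.12), *Onecut1* by 1.36 (SE 0.14) and *Ppara*, the fatty acid receptor, by 0.92 (SE 0.07), while *Hnf4a* rose by 0.38 (SE 0.08) and lost its call without the 4 arrays (0.35, adjusted p = 0.066). Of 9 hepatoblast and foetal liver genes 4 were lower and 2 higher (median -0.25), and 2 were lower without the 4 arrays. *Igf2bp1*, which binds growth factor messages, fell by 0.57 and *Plagl1*, an imprinted zinc finger gene, by 0.68, while the growth factor *Igf2* rose by 0.18 (adjusted p = 0.29 without the 4 arrays) and its imprinted neighbour *H19* by 0.19.

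Hormone-responsive genes rose in part. Of 15 genes of the glucocorticoid receptor and its targets 9 were higher and 1 lower (median 0.41), and 4 were higher without the 4 arrays with other tissue markers. *Igfbp1*, the binding protein that limits free IGF, had 13.03, 13.18, 12.57 and 13.18 in F22 livers and 10.94, 11.04, 10.68 and 11.06 in F20 livers (2.06, SE 0.14, adjusted p = 3.9e-09). *Klf9*, a direct target in other tissues, rose by 1.60 (SE 0.20), and *Hsd11b1*, which makes active glucocorticoid inside the cell, had 10.27, 9.94, 10.17 and 10.30 at F22 and 8.65, 8.79, 8.57 and 8.92 at F20 (1.44, SE 0.10). The groups did not overlap for these. The target that fell was *Angptl4*, an inhibitor of lipoprotein lipase, with 7.18, 6.91, 7.46 and 7.38 in F22 livers and 8.29, 8.34, 8.18 and 8.48 in F20 livers (-1.09, SE 0.14). In the growth hormone and IGF list 10 of 16 were higher and 0 lower (5 higher without the 4 arrays), with *Igf1* at 0.67 (adjusted p = 0.070 without the 4 arrays). *Dio1*, the deiodinase that activates thyroid hormone, rose by 1.85 (SE 0.19), while of 11 thyroid hormone response genes 4 were higher and 1 lower (median 0.10).

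Enzymes of glucose output were raised before birth to unequal degrees. Of 13 gluconeogenesis genes 6 were higher and 0 lower (median 0.41), and the mean level was 9.55, 9.75, 9.11 and 9.34 in F22 arrays and 8.42, 8.49, 8.36 and 8.50 in F20 arrays. *Fbp1*, the fructose-bisphosphatase, had 11.58, 11.78, 11.33 and 11.42 at F22 and 9.17, 9.30, 9.04 and 9.30 at F20 (2.33, SE 0.10, adjusted p = 5.9e-12). *Pck1*, the carboxykinase that controls the pathway, had 8.03, 8.25, 6.44 and 7.33 in F22 livers and 6.41, 6.31, 6.69 and 6.57 in F20 livers (1.02, SE 0.26, adjusted p = 0.0036). The groups overlapped for *Pck1*, with F22 replicate 3 within the F20 range, and the call was lost without the 4 arrays (0.90, adjusted p = 0.11). Its mean reached 12.67 at P1. Of 21 glycolysis genes 10 were lower (4 without the 4 arrays), among them *Pfkm* (-0.85, SE 0.09) and *Pklr*, the liver pyruvate kinase (-0.59, SE 0.11). The 2 that were higher were *Hk3* (0.51, adjusted p = 0.089 without the 4 arrays), a hexokinase of blood cells, and *Gckr* (0.99), the protein that holds back glucokinase.

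Genes of fat oxidation were higher. Of 20 beta-oxidation genes 14 were higher and 0 lower (median 0.35). *Cpt1a*, the carnitine palmitoyltransferase that admits fatty acids to mitochondria, had 10.49, 10.25, 9.35 and 9.65 in F22 livers and 7.83, 8.06, 7.96 and 8.17 in F20 livers (1.93, SE 0.19, adjusted p = 3.1e-07). *Pdk4*, the kinase that shuts pyruvate dehydrogenase, had 9.77, 9.81, 9.41 and 9.14 at F22 and 6.64, 6.84, 6.54 and 6.95 at F20 (2.79, SE 0.24). Both genes were lower in F22 replicates 3 and 4 than in replicates 1 and 2, and all F22 livers were above the F20 livers. *Acsl1*, which activates fatty acids, rose by 0.68 (SE 0.07) and *Vnn1*, the pantetheinase vanin, by 1.77 (SE 0.14). Related lists were mixed. Of 13 genes of PPAR alpha and its targets 6 were higher and 1 lower (median 0.67). Of 11 genes of pyruvate fate, where *Pdk4* had the highest difference, 2 were higher and 5 lower (median -0.27).

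Genes of cholesterol synthesis were lower at F22. In cholesterol synthesis 10 of 19 genes were lower and 0 higher (median -0.58), and for 16 of 19 every F22 array was below every F20 array. *Mvd*, the decarboxylase of the mevalonate pathway, had 8.35, 8.43, 8.35 and 8.30 in F22 livers and 9.82, 9.79, 9.83 and 9.70 in F20 livers (-1.43, SE 0.07, adjusted p = 1.2e-11). *Lss*, the cyclase that makes lanosterol, had 9.78, 9.75, 10.07 and 9.95 at F22 and 10.95, 11.11, 11.04 and 10.98 at F20 (-1.13, SE 0.29), and *Idi1* differed by -1.02 (SE 0.29). *Sqle*, the squalene epoxidase, was 9.88, 9.97, 10.02 and 9.75 in F22 livers and 10.87, 10.94, 10.87 and 10.85 in F20 livers, yet did not pass (-0.98, SE 0.40, adjusted p = 0.066). Within each group these genes varied little, and their wide errors stand beside the spread of the P1 arrays described above. With the 8 arrays alone, or without P1 replicate 1, 16 of 19 were lower, and *Sqle* had an adjusted p of 8.2e-06 with the 8 arrays alone. Without the 4 arrays with other tissue markers 3 of 19 were lower at nearly the same median (-0.55), and *Lss* (-1.14, adjusted p = 0.10) and *Idi1* (-0.85, adjusted p = 0.22) lost their calls. *Srebf2*, the factor that drives the pathway, was -0.10 (SE 0.12, adjusted p = 0.60).

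Of 18 genes of fatty acid and triglyceride synthesis 5 were lower and 3 higher (median 0.04), with 3 lower without the 4 arrays, and those lower were the desaturases *Scd*, *Fads1* and *Fads2* (-0.40) with *Fasn* and *Acly*. *Fasn*, the fatty acid synthase, had 10.46, 10.48, 10.34 and 10.38 in F22 livers and 11.40, 11.34, 11.14 and 11.23 in F20 livers (-0.87, SE 0.18). *Acly*, which makes cytosolic acetyl-CoA, differed by -0.75 (SE 0.18, adjusted p = 0.13 without the 4 arrays) and *Fads1* by -0.53 (SE 0.10). *Scd* and *Acss2*, at -2.0 and -1.55 without the 4 arrays, then had adjusted p values of 0.060 and 0.079, and *Acat2* (-1.20) 0.090. The 3 that were higher, *Agpat2* (0.67), *Mlxipl* (0.42, adjusted p = 0.090 without the 4 arrays) and *Dgat2* (0.37), build triglycerides or, for *Mlxipl*, regulate glucose-responsive genes.

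Windows of *Mvd* (chr19:67414925-67415224) and *Lss* (chr20:12118181-12118480), both on the minus strand of GRCr8 in RefSeq, show the CCAAT box found in many sterol gene promoters. Capitals mark CCAAT on either strand.
Mvd: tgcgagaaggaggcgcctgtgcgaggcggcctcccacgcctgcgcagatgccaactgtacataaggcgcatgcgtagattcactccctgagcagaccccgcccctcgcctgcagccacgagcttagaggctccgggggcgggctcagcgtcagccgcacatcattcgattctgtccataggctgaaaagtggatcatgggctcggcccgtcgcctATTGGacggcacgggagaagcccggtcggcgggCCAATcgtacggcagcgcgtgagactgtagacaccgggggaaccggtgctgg
Lss: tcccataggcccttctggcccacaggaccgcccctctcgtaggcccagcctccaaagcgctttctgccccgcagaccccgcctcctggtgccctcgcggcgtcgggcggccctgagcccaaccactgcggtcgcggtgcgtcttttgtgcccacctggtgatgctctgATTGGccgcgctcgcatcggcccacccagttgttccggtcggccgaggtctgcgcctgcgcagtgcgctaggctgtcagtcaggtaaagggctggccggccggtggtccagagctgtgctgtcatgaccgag
The box stood in 13 of 15 cholesterol synthesis windows (86.7%, against 37.5% of all windows).

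Bile acid and drug metabolism genes rose with exceptions. Of 16 bile acid genes 10 were higher and 1 lower (median 0.82). *Cyp7a1*, the rate-limiting enzyme of bile acid synthesis, had 10.43, 9.59, 10.46 and 9.26 in F22 livers and 6.78, 7.05, 6.89 and 6.87 in F20 livers (3.04, SE 0.35, adjusted p = 1.7e-06). The export pump *Abcb11* had 10.47, 10.01, 9.92 and 10.12 at F22 and 8.55, 8.57, 8.35 and 8.81 at F20 (1.56, SE 0.12). Both were separate between the groups. *Cyp8b1*, which sets the kind of bile acid made, rose by 1.03 (SE 0.21) and stood 5.06 higher again at P1 than at F22. The only gene of the list that was lower was *Slc27a5*, the bile acid CoA ligase, at -0.59 (SE 0.21, adjusted p = 0.031). Its F22 values of 8.21, 7.29, 8.00 and 7.55 lay just below 8.23, 8.37, 8.33 and 8.47 at F20, and its adjusted p was 0.061, 0.053, 0.075, 0.13 and 0.089 without F20 replicate 2, 3 or 4 or F22 replicate 2 or 4, and 0.080 without the 4 arrays with other tissue markers.

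Of 24 cytochromes P450 of families 1 to 3, many of them close copies, 9 were higher and 1 lower (median 0.30). *Cyp2c22* had 11.43, 11.13, 11.01 and 10.89 in F22 livers and 8.56, 8.50, 8.66 and 8.67 in F20 livers (2.52, SE 0.12). *Cyp3a18* rose by 2.55 (SE 0.20), against the fall of *Cyp3a23-3a1* of the same family, and *Cyp2e1*, of ethanol oxidation, did not pass (-0.39, SE 0.44, adjusted p = 0.56). Of 21 conjugating enzymes 12 were higher and 1 lower, led by the sulphotransferase *Sult1b1* (1.65, SE 0.25). Amino acid enzymes rose as well. In the urea cycle 4 of 7 were higher (2 without the 4 arrays), with *Ass1*, the argininosuccinate synthase, at 1.05 (SE 0.11) and *Cps1* at 0.67 (SE 0.13), and in the methionine cycle 9 of 14 were higher and 1 lower, with *Mat1a*, which makes the methyl donor of the liver, at 1.86 (SE 0.10).

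Stress genes differed by pathway. Of 18 ATF4 and amino acid stress genes 6 were higher, *Slc7a11* with *Atf5* (1.67, SE 0.17) and *Trib3* (1.05, SE 0.21) among them, while *Atf4* was -0.04 (SE 0.08, adjusted p = 0.78). Of 14 unfolded protein genes 9 were higher (median 0.25), led by *Herpud1* (1.18, SE 0.08), which helps to clear misfolded proteins. Their count was 5 without F22 replicate 1 or without F22 replicate 3, and 3 without the 4 arrays. Of 13 NRF2 targets 3 were higher and 4 lower (1 and 2 without the 4 arrays). Immediate early genes (1 of 16 higher and 1 lower), heat shock genes (2 of 10 lower) and hypoxia genes (2 of 16 each way) were near or below the background.

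Mitochondria are the subject of the study. In the main fit, genes of their ribosomes and protein import were lower at F22 more often than the 20.8% of all genes. The beta-oxidation genes described above, which the study places with mitochondrial metabolism, went the other way, with 14 of 20 higher. The full set of mitochondrial genes followed in the study was not counted here. Of 68 mitochondrial ribosomal proteins 33 were lower and 2 higher (median -0.20), and of 23 import genes 14 were lower and 2 higher (median -0.21). *Mrpl18* had 8.44, 7.66, 8.05 and 8.29 in F22 livers and 9.13, 9.10, 9.06 and 9.26 in F20 livers (-1.03, SE 0.16), and the import channel protein *Timm17a* 9.03, 9.02, 9.16 and 8.95 at F22 and 9.60, 9.64, 9.64 and 9.55 at F20 (-0.57, SE 0.06). Every F22 array was below every F20 array in both. Of 16 citric acid cycle genes 3 were higher and 4 lower (median -0.05), and the lowest was *Cs*, the citrate synthase (-0.62, SE 0.07). *Nrf1*, a regulator of nuclear genes for mitochondria, fell by 0.69 (SE 0.07). In the respiratory chain 6 of 33 complex I subunits, 6 of 20 of complexes III and IV and 6 of 15 of ATP synthase were lower and 0 were higher, with no firm place against the background of 20.8% lower. Complex I had 10 lower without F22 replicate 3, ATP synthase had 3 lower without F22 replicate 4 or without F20 replicate 3, and without the 4 arrays with other tissue markers 1, 1 and 3 were lower. The mitochondrial ribosomal and import counts then stood at 15 and 4 lower. *Polg2*, the accessory subunit of the mitochondrial DNA polymerase, rose by 0.94 (SE 0.12), and *Ppargc1a*, a coactivator of mitochondrial genes, was 0.43 (SE 0.31, adjusted p = 0.32, and 0.022 with the 8 arrays alone).

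Coenzyme Q is the lipid that shuttles electrons along the respiratory chain. Of 12 measured genes of its synthesis 4 were lower and 0 higher (median -0.08), with 2 lower without F22 replicate 4 and 1 without the 4 arrays with other tissue markers. *Coq8a*, the kinase-like protein that the study considers as a regulator, had 8.69, 8.44, 8.50 and 8.22 in F22 livers and 8.32, 8.37, 8.17 and 8.07 in F20 livers. The groups overlapped and the difference did not pass (0.23, SE 0.11, adjusted p = 0.11), though without F22 replicate 4 it was 0.31 (adjusted p = 0.036). The 4 genes that were lower were *Coq3* (-0.37, SE 0.06), *Coq6* (-0.31, SE 0.08), *Coq5* (-0.29, SE 0.09) and *Coq10b* (-1.05, SE 0.37), a binding protein of coenzyme Q. *Coq5* had an adjusted p of 0.055, 0.050 and 0.071 without F20 replicate 2, F22 replicate 1 or F22 replicate 4, and *Coq10b* between 0.053 and 0.084 when any 1 of F20 replicates 3 and 4 and F22 replicates 1, 2 and 4 was left out. The groups did not overlap for *Coq10b* (7.84 to 8.46 at F22 and 9.07 to 9.41 at F20). Its SD was 1.12 at P1 and 0.56 at P4, and both groups enter the error of the fit. Without the 4 arrays with other tissue markers the adjusted p was 0.31 for *Coq5*, 0.067 for *Coq6* and 0.21 for *Coq10b*. *Coq2* (-0.03), *Coq4* (0.04), *Coq7* (-0.14, and -0.18 with an adjusted p of 0.050 without F22 replicate 1) and *Coq9* (-0.06) did not pass.

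**Figure D4:**
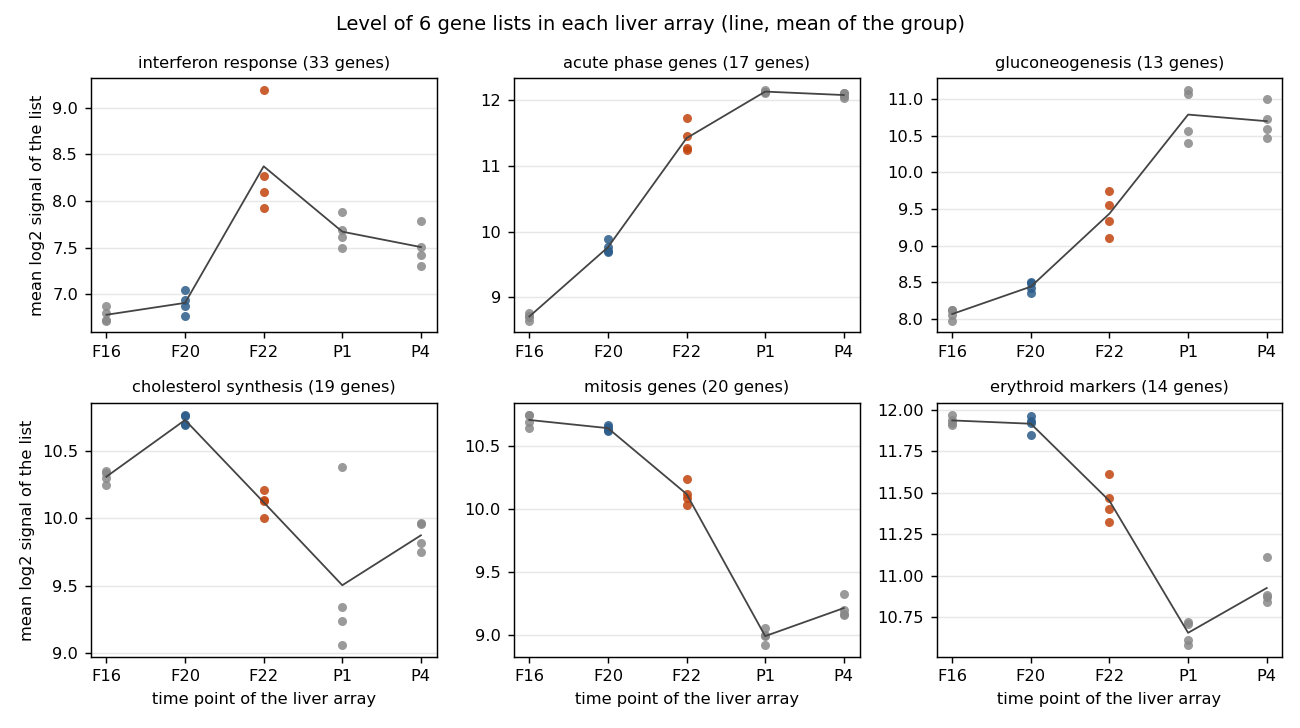
Mean log2 signal (y axis) of 6 gene lists in each liver array from F16 to P4 (x axis), with F22 and F20 arrays in colour and a line through the group means. Within F16 to P4, interferon response genes peak at F22 and acute phase genes climb at each step up to P1.

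Set in the liver series, the interval differed from its neighbours by list. The neighbouring differences share the F20 or the F22 arrays with the one described here and are given side by side only. Interferon genes had a median difference of 0.05 between F20 and F16, 1.36 between F22 and F20, and -0.77 between P1 and F22. In adult liver (P90) the mean level of the interferon list was 9.11 (arrays 9.05 to 9.16), against 8.37 (7.93 to 9.19) at F22. Acute phase genes had 1.05, 1.34 and 0.32 over the same steps, and neutrophil granule genes 1.08, 1.68 and 0.09. Mitosis genes were at -0.05, -0.51 and -1.13, and erythroid markers at 0.02, -0.51 and -0.77. Cholesterol synthesis turned, with 0.41, -0.58 and -0.52. Gluconeogenesis had 0.33, 0.41 and 0.89, and bile acid genes 0.58, 0.82 and 1.79, so that in both lists the step over birth was the largest of the 3. The steps are not of equal length in days, and the medians are not rates.

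**Figure D5:**
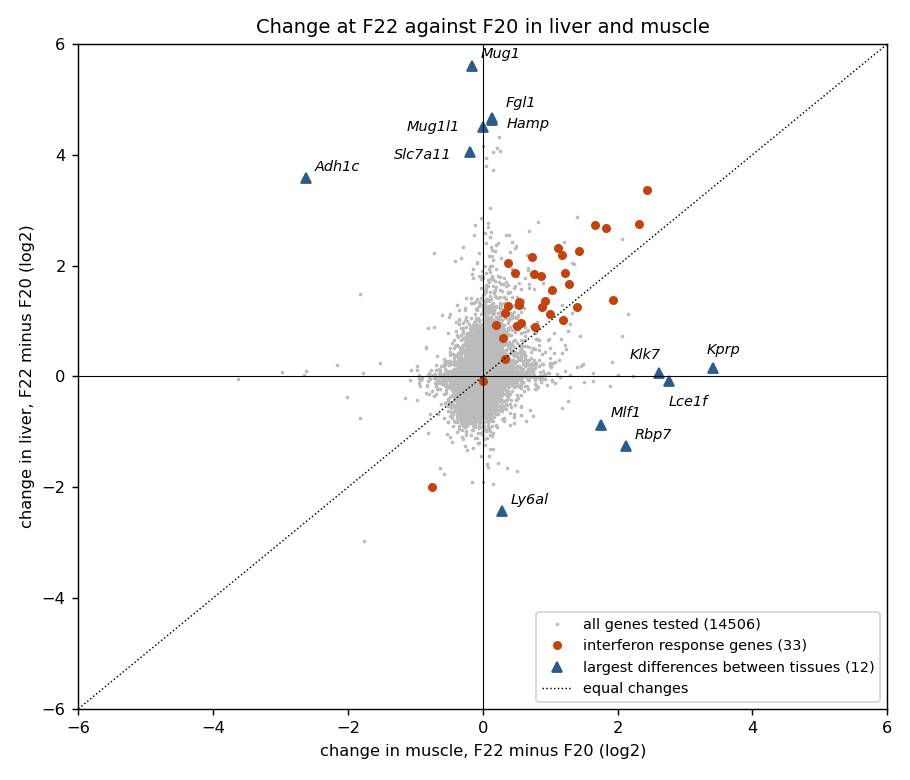
Change in liver (y axis) against that in muscle (x axis), as log2 F22 minus F20, for 14506 genes, with 33 interferon response genes as circles and 12 genes with the largest differences between tissues as triangles. *Mug1*, *Fgl1* and *Hamp* lie on the vertical axis with changes near 0 in muscle, and most interferon genes lie above 0 in both tissues.

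To see which changes were particular to liver, the difference F22 minus F20 was compared with that in hind limb muscle (5 arrays at each of F22 and F20) in 1 fit of 45 arrays. The tissues were normalised apart, so that changes and not levels are compared. The change differed between tissues for 3918 probe sets, and by gene for 3779 of 14506 (26.1%). Liver minus muscle was positive for 2011 and negative for 1907 of these probe sets, and with arrays centred on their median for 1586 and 2784. *Adh1c* had the highest difference (6.20, SE 0.28, adjusted p = 6e-20), with 3.58 in liver and -2.62 in muscle. *Mug1* (5.77), *Fgl1* (4.55), *Mug1l1* (4.51), *Hamp* (4.48) and *Slc7a11* (4.24) followed, all with changes in muscle between -0.19 and 0.14. At the other end *Ly6al* differed by -2.72 (SE 0.26), *Rbp7*, a retinol-binding protein, by -3.38 (SE 0.43) and *Mlf1* by -2.63 (SE 0.25), and the last pair stood at -1.26 and -0.87 in liver against 2.12 and 1.76 in muscle. *Kprp* (-3.27), *Lce1f* (-2.84) and *Klk7* (-2.55) are genes of the skin, and their differences come from muscle (3.42, 2.76 and 2.61) with 0.15, -0.08 and 0.06 in liver. Without 3 muscle arrays that lie apart from their groups (F20 replicates 4 and 5 and F22 replicate 5) these 3 genes differed by -5.37, -4.64 and -4.03. *Kprp* in muscle ran from 6.58 to 11.69 (median 7.06) at F20, so the size of its difference depends on the arrays kept.

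By list, liver minus muscle was called and positive for 11 of 17 acute phase genes, 10 of 12 neutrophil genes and 7 of 12 macrophage markers. It was called and negative for 12 of 20 mitosis genes and 9 of 19 cholesterol genes. Their median changes were -0.51 in liver and -0.21 in muscle for mitosis, and -0.58 and 0.02 for cholesterol synthesis. Interferon genes had a median of 1.36 in liver and 0.87 in muscle. *Usp18* in muscle ran from 5.84 to 9.82 (median 8.95) at F22 and from 5.71 to 5.81 (median 5.72) at F20, and its change was not shown to differ (0.93, SE 0.64, adjusted p = 0.32). The change was larger in liver for 10 of 33 genes, among them *Ifi27* (1.18, adjusted p = 0.017) and *Ifit3* (0.82, adjusted p = 0.0069), and smaller for 0. Without the 3 muscle arrays it was larger for 9, and *Ifi27* was at 0.97 (adjusted p = 0.080) and *Ifit3* at 0.76 (adjusted p = 0.026).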

How the data were processed

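Foetal livers were profiled on GeneChip Rat Gene 1.0 ST arrays, and the values used are the log2 values after RMA as the authors deposited them. Affymetrix Expression Console is the tool named in the submitters' processing notes, with no version stated in the sources. RMA corrects background, normalises between arrays and summarises the probes of a probe set. Differences of very dim or very bright probe sets can be compressed. Of 29214 probe sets 15310 carried 1 gene symbol in the platform annotation, 323 several and 13581 none, and 15279 of the named ones matched a current RefSeq gene record by gene ID. No further normalisation was made. For 527 genes with several probe sets, the one with the highest mean over the liver arrays was described.

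Groups F16, F20, F22, P1 and P4 of liver (20 arrays) entered 1 limma fit (limma 3.58.1, R 4.3.3), and the contrast F22 minus F20 was tested with empirical Bayes and Benjamini-Hochberg adjustment over all 15310 probe sets, at an adjusted p of at most 0.05. The change was compared with that in muscle as an interaction over 45 arrays. The precision is limited by 4 arrays a group. Simulated data took independent normal noise around the F20 means, with known changes in 66 or 67 probe sets of each size. There, 85.1% of genes changed by 0.5, 98.5% by 1 and 100% by 2 on the log2 scale were recovered over 15310 probe sets. The simulation held no outlying arrays and far fewer changes than the data, so these shares do not measure recovery in the data. Named are the 15 highest and 15 lowest differences among called genes with no overlap of arrays, up to 6 members a list in each direction with its defining members, the 6 highest and 6 lowest differences between tissues, and genes the study names. The members and the 79 gene lists were chosen with earlier results of these data known, and some lists share genes. A few genes named in a list paragraph were added after their values were seen. Alternatives were other samples in the fit, a filter on dim probe sets, another prior, quantile normalisation, centring, array weights, a replicate block, averaged probe sets, an unadjusted threshold and leaving out each array. Leaving out the 4 arrays with markers of other tissues, and P1 replicate 1 for genes and lists, was chosen after seeing the data. Promoter windows were searched for 8 motifs.

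The replicate numbers of F22 and F20 were checked for pairing, and the deviations of same-numbered arrays from their group means correlated at 0.28, 0.086, -0.066 and 0.043, so that the numbers were not taken to pair the samples.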

Additional observations from a re-analysis of the deposited data

Results flagged for a closer look

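In 12 of 328 groups of 4 arrays (164 named genes at F22 and F20) a single array lay far from the other 3, and chance flags about 1 in 20 groups. At F22 these were *C9* at 12.19 (others 11.03 to 11.13), *Ifit3* at 8.40 (others 6.76 to 6.98), *Ifit1* at 5.38 (others 5.11 to 5.15), *Polg2* at 8.86 (others 8.64 to 8.67) and *Coq4* at 7.58 (others 7.75 to 7.78). At F20 they were *Adh1c* at 9.41 (others 8.83 to 8.85), *Klkb1* at 10.34 (others 9.83 to 9.91), *F12* at 9.82 (others 9.60 to 9.63), *Ifit3* at 6.24 (others 6.05 to 6.07), *Alas2* at 12.95 (others 12.84 to 12.85), *Cebpa* at 8.35 (others 8.51 to 8.54) and *Mpo* at 10.39 (others 10.73 to 10.79).

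The change at F22 differed between liver and muscle by the interaction term of the limma fit for the genes with the highest and lowest differences. Liver minus muscle was 6.20 for *Adh1c*, 5.77 for *Mug1*, 4.55 for *Fgl1*, 4.51 for *Mug1l1*, 4.48 for *Hamp* and 4.24 for *Slc7a11*. It was -3.38 for *Rbp7*, -3.27 for *Kprp*, -2.84 for *Lce1f*, -2.72 for *Ly6al*, -2.63 for *Mlf1* and -2.55 for *Klk7*.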

How the results depend on the processing

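Without the 4 arrays with markers of other tissues 3108 probe sets were called, 1295 higher and 1813 lower, with fewer arrays in the fit. Of the 164 named genes 22 then lost their call and 142 stayed on the same side of the threshold. Leaving out each array in turn gave 4809 to 5226 called, 1948 to 2151 higher, 2805 to 3075 lower and 344 to 390 over 2-fold, and 3388 to 4005 for the comparison with muscle, which fell to 2590 when restricted to 6429 brighter probe sets. With arrays centred, liver minus muscle was positive in 36.3% of the calls against muscle (51.3% uncentred), and 35.5% of liver calls were then higher. No called gene among those named changed direction with centring, the 8 or the 19 arrays, averaged probe sets, each array left out or the 4 arrays left out, and the other alternatives were run for the counts only. The median of glucose and fructose transporters was 0.09, with -0.04 (without F22 replicate 4) to 0.10 when an array was left out and -0.02 without the 4 arrays, and that of fatty acid uptake and binding 0.17, with -0.06 (without F22 replicate 3) to 0.19, and the cause was not tested. With the replicate number as a block 5385 probe sets were called (3826 against muscle), although the numbers were not shown to pair the samples.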
